A study of Mus musculus with 10 samples.

Results

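The genes described here are 29 listed genes of cholesterol synthesis and its control by the transcription factor SREBP2, chosen by symbol from the 23056 symbols of a liver count table. They comprise 20 enzymes of the route from acetyl-CoA to cholesterol, counting Ggps1 of an isoprenoid side branch, and 9 genes that control the pathway or handle its product. All 29 had a row in the table, and 28 had enough reads to be tested. The 10 libraries were poly(A) RNA from mouse liver taken 12 hours after partial hepatectomy, the surgical removal of the median and left lateral lobes under isoflurane. There were 6 libraries from wild-type (WT) mice and 4 from mice whose genotype is labelled IFRD1-KO (KO), and both groups had the same operation. Ifrd1 encodes a transcriptional co-regulator, and the study set out to learn its role in the regenerating liver. The labels give neither strain, sex and age nor the cells in which the gene was altered, and no unoperated liver was analysed here. All values therefore compare genotypes after surgery. The labels number the libraries without naming the animal of each, and the p-values reflect the spread from library to library, which may be partly technical.

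Cholesterol is built from acetyl-CoA through mevalonate, isoprenoid diphosphates, squalene and lanosterol, and the liver is a main site of this synthesis. SREBP2 is made as a membrane protein of the endoplasmic reticulum, where it is bound by its escort SCAP. When sterols are plentiful, INSIG proteins hold the complex in place. When sterols fall, the complex moves to the Golgi, proteases release the active factor, and it raises transcription of nearly every enzyme of the pathway and of its own gene.

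Libraries held 12307446 to 17098012 counts. Ifrd1 was at 40.2 to 81.7 CPM (counts scaled to a common library size, corrected for composition) in WT and at 13.0, 22.6, 20.8 and 21.6 CPM in KO replicates 1 to 4, a log2 fold change of -1.59 (SE 0.23, edgeR adjusted p = 0.0258). Gene-level counts do not show which exons these KO reads came from. The 6 hepatocyte markers found in the table summed to 36888 to 78214 CPM in WT and 48520 to 58940 CPM in KO. The library labelled WT replicate 4 stood apart from its group: its profile correlated more with the KO libraries (mean r = 0.970) than with the other WT libraries (mean r = 0.918), while its Ifrd1 level of 49.6 CPM lay within the WT range. KO replicate 2 stood apart in the sterol genes themselves. Where leaving out KO replicate 2 or WT replicate 4 moved a value most, the value without it is given too.

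Across the 28 tested genes, cholesterol synthesis enzymes were mostly higher in KO than in WT, by amounts that differed greatly between the KO libraries. Only 2 genes rose past the threshold, Sc5d and Hsd17b7, and none fell (edgeR's quasi-likelihood test, Benjamini-Hochberg adjusted p under 0.05 over 13688 genes). Of all tested genes, 0.563% were called higher and 0.767% lower. At an unadjusted p under 0.05, 10 genes were higher and 2 lower, beside 11.6% and 14.4% of all genes. The fold change was above 0 for 20 genes and below 0 for 8, against 48.4% above 0 among all genes. Under upper-quartile scaling Tm7sf2 and Mylip changed sign, which gave 22 and 6. The median log2 fold change was 0.67 over the 20 enzymes and 0.52 over the 28 genes, beside -0.016 over all genes. Without KO replicate 2 these medians were 0.26, 0.17 and -0.020. That fit called 0 of 13989 genes, so no gene passed on its adjusted p without KO replicate 2. More genes passed in other fits: DESeq2 called 7 of the 28 (11.9% of all genes), limma-voom with sample weights 5 (19.2%), and edgeR without WT replicate 4 and KO replicate 2 called 4 (12.9%). These are descriptions of a chosen list, with no test of the list as a whole. In tissue RNA, a change in the number of cells of a type and a change in RNA per cell cannot be told apart.

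**Figure D1:**
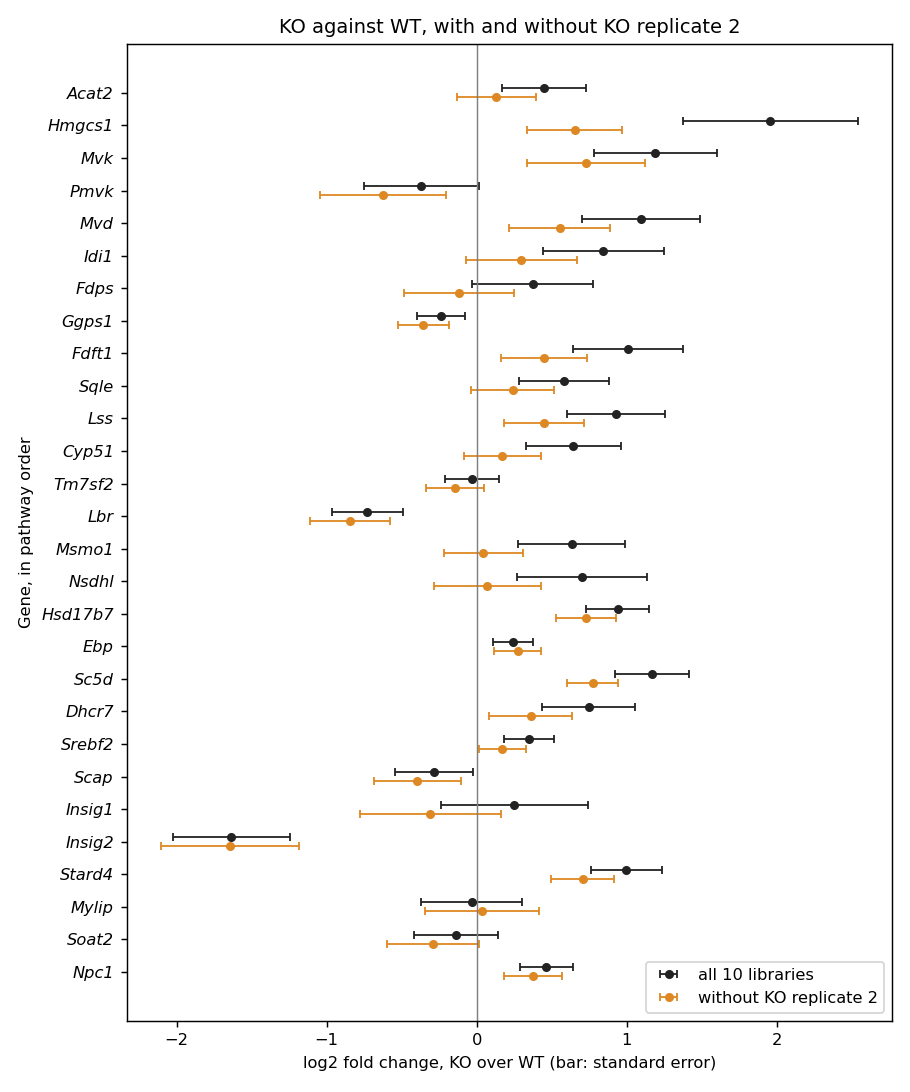
Log2 fold change of KO over WT for each tested gene in pathway order, with all 10 libraries (black) and without KO replicate 2 (orange); bars are the SE of the edgeR fit. Sc5d and Hsd17b7 passed the threshold with all libraries, and most enzymes moved towards 0 when KO replicate 2 was left out.

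Sc5d and Hsd17b7 act in the last stretch, from lanosterol to cholesterol: HSD17B7 reduces the keto group left by demethylation, and SC5D introduces a double bond into the sterol ring. Their promoters, which for these genes run from 250 bases before to 50 bases after the RefSeq start (GRCm38.p6), are shown because they are the called genes, with an E-box (CACGTG) and NF-Y boxes (CCAAT, here read as ATTGG on the printed strand) in capitals. Hsd17b7 is at chr1:169969156-169969455 and Sc5d at chr9:42264251-42264550, both on the minus strand and printed 5' to 3' along the gene.
Hsd17b7: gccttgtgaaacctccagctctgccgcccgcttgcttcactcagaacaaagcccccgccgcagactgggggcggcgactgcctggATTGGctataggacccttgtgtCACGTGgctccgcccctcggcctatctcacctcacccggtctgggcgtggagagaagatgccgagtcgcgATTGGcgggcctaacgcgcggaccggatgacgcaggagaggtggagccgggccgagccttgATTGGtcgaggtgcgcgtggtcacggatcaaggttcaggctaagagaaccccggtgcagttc
Sc5d: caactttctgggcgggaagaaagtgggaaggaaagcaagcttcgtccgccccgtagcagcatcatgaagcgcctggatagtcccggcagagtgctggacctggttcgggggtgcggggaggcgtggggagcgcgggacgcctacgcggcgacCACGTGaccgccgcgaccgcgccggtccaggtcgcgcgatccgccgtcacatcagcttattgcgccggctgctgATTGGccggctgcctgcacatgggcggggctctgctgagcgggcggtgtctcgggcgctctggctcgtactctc
The E-box begins at -143 in Hsd17b7 and at -98 in Sc5d, counted from the start. The sterol regulatory element core TCACNCCA was not found in these windows on either strand.

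Sc5d (chromosome 9, 42251595 to 42264256, minus strand) was at 41.0 CPM in the lowest WT library, 59.0 at the median and 67.0 in the highest. KO replicates 1 to 4 had 96.0, 224, 100.3 and 99.9 CPM. Every KO library lay above every WT library, and 3 of them were nearly equal while replicate 2 was more than 2-fold above these. This gave a log2 fold change of 1.17 (SE 0.24, edgeR adjusted p = 0.0468). The two-sided exact permutation p was 0.00476, the smallest that 210 splits of 10 libraries allow, and 0.197 after adjustment over all genes. No gene had a lower adjusted permutation p, and Ifrd1 itself had 0.197, so this adjusted test could pass no gene. Without KO replicate 2 the KO mean was 98.7 ± 2.39 CPM (SD, n = 3) against 57.8 ± 9.58 CPM (SD, n = 6) in WT, a log2 difference of 0.77 with an edgeR adjusted p of 0.147.

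Hsd17b7 (chromosome 1, 169949535 to 169969241, minus strand) ranged from 33.2 to 57.4 CPM in WT, with a median of 40.8. In KO replicates 1 to 4 it was at 64.8, 119.6, 76.1 and 77.4 CPM. The groups did not overlap, and replicate 2 was again the highest. The difference on the log2 scale was 0.94 (SE 0.21, edgeR adjusted p = 0.0496), and 0.73 without KO replicate 2 (edgeR adjusted p = 0.153). Both calls lie close to the threshold and were lost on leaving out any library other than WT replicate 4, with edgeR adjusted p-values of up to 0.147 for Sc5d and 0.153 for Hsd17b7. The fits that lost them called few genes of any kind, from 0 of 13989 without KO replicate 2 to 55 of 13577 without WT replicate 2. Without WT replicate 4 both Sc5d and Hsd17b7 were called, in a fit that called 10.5% of all genes higher.

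Among the 28 genes, 4 had KO libraries wholly above the WT libraries (Sc5d, Hsd17b7, Ebp and Stard4) and none had KO libraries wholly below, beside 3.61% and 3.29% of all tested genes. Stard4, a cytosolic carrier that moves sterol between membranes, was at 15.2 CPM (lowest), 20.5 (median) and 29.8 (highest) in WT. In KO replicates 1 to 4 it was at 31.2, 66.0, 39.8 and 33.1 CPM. KO replicate 1 lay just above the highest WT library and replicate 2 far above it. The log2 fold change was 1.00 (SE 0.24, edgeR adjusted p = 0.0546), just outside the threshold, and 0.71 without KO replicate 2 (edgeR adjusted p = 0.167). Ebp, the sterol isomerase that acts just before SC5D, showed a small and even difference. Its WT libraries lay at 99.5 to 129 CPM with a median of 124, and its KO replicates 1 to 4 at 151, 133, 130.3 and 156 CPM. Replicate 2 did not stand out for Ebp. Its log2 fold change was 0.24 (SE 0.13, edgeR adjusted p = 0.274). The exact permutation p of 0.00952 became 0.197 after adjustment over all genes, the lowest adjusted value that any gene had. The Ebp groups were separated narrowly, by WT replicate 6 at 129 CPM and KO replicate 3 at 130.3 CPM.

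**Figure D2:**
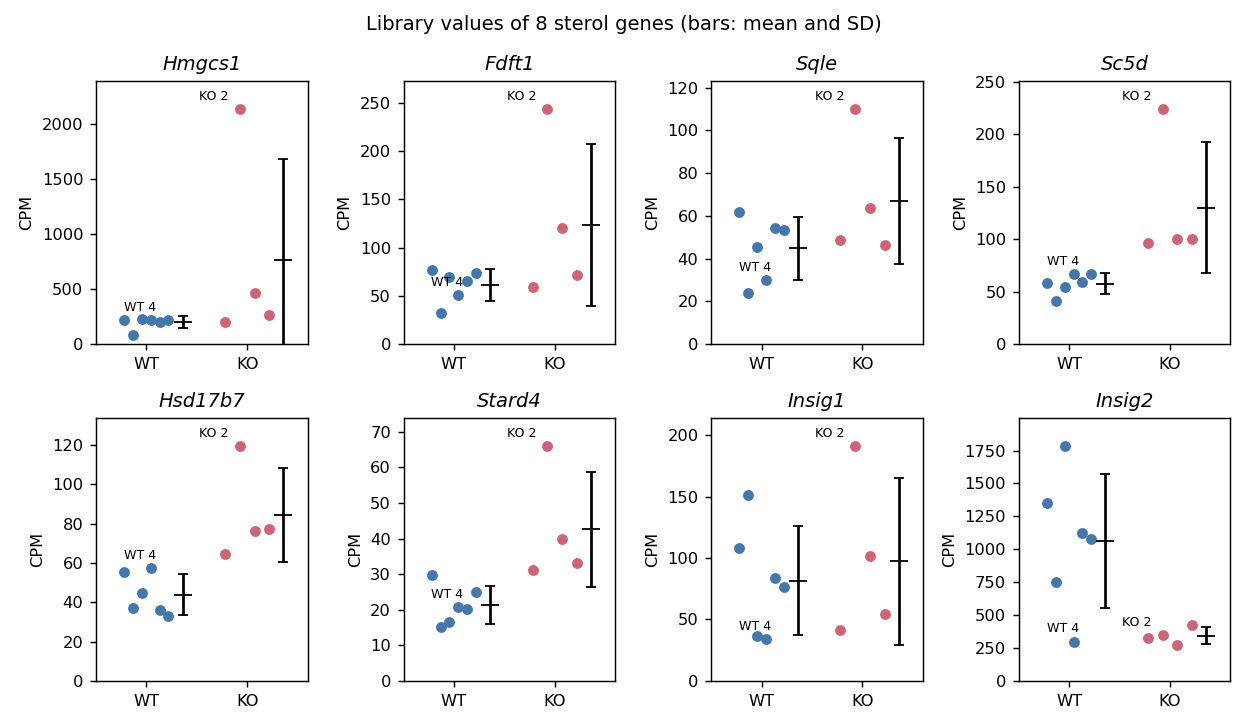
CPM per library (points) for genes that the results turn on, in WT (n = 6) and KO (n = 4), with the group mean and SD; linear axes start at 0, and the lower end of the KO bar of Hmgcs1 falls below 0 and is cut there. KO replicate 2 is the highest point for Hmgcs1, Sc5d, Hsd17b7 and Stard4, and the library labelled WT replicate 4 lies among the KO libraries for Insig2.

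The mevalonate enzymes showed the largest median change and the widest spread: the median log2 fold change was 1.10, 4 of 5 were above 0 and 0 were called. Hmgcs1 (chromosome 13, 119690379 to 119708260, plus strand), which condenses acetoacetyl-CoA with acetyl-CoA to HMG-CoA, was at 88.0 CPM in the lowest WT library, 219 at the median and 232 in the highest. KO replicates 1 to 4 had 202, 2138, 464 and 267 CPM. Replicate 1 lay inside the WT range, replicate 4 slightly above it, and replicate 2 at 6.88 times the mean of the other KO libraries. The log2 fold change of 1.96 (SE 0.58) did not pass the threshold (edgeR adjusted p = 0.0838), and it was 0.65 without KO replicate 2 (edgeR adjusted p = 0.281). In KO replicate 2, Hmgcs1 alone made up 49.9% of the summed CPM of the 20 enzymes, against 12.3 to 22.7% in WT.

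The promoters of Hmgcs1 and of Srebf2, the gene of SREBP2 itself, each hold the sterol regulatory element core TCACNCCA, and are shown because these are the enzyme with the largest fold change and the regulator of the pathway. Both are on the plus strand of GRCm38.p6, Hmgcs1 at chr13:119690101-119690400 and Srebf2 at chr15:82147019-82147318, from RefSeq, with the element core and NF-Y boxes in capitals.
Hmgcs1: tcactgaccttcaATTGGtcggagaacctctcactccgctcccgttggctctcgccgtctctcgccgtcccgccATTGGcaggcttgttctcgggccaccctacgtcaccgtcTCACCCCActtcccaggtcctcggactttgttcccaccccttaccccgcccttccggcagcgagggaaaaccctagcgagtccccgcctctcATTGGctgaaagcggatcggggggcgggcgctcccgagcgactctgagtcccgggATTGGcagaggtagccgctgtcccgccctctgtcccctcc
Srebf2: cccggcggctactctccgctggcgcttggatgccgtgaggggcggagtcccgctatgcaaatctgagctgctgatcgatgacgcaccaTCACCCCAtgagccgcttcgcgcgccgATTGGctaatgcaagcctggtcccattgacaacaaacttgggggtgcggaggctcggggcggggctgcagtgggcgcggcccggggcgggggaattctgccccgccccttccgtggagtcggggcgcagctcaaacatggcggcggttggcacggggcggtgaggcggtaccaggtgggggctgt
The element core begins at -137 in Hmgcs1 and at -162 in Srebf2. Hmgcs1 has 4 NF-Y boxes in this window.

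Promoters of this length were found for 23 of the 29 genes. Each motif was searched on both strands, and an overlap with another motif was allowed. The sterol regulatory element core TCACNCCA occurred in 3 of the 23 (13.0%), Hmgcs1, Msmo1 and Srebf2, beside 4.97% of 27025 genes. The E-box CACGTG occurred in 5 (21.7%, all genes 8.09%): Hsd17b7, Sc5d, Dhcr7, Scap and Insig1. The NF-Y box CCAAT occurred in 21 (91.3%, all genes 41.1%), and the GC box GGGCGG, a site for SP1-type factors, in 20 (87.0%, all genes 38.2%). These are matches of letters and were not tested against the expression values.

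The other mevalonate enzymes were at lower levels, and KO replicate 2 was the highest KO library for each. Mvk, mevalonate kinase, was at 2.27 to 8.89 CPM in WT and 7.23, 24.3, 14.5 and 7.03 CPM in KO replicates 1 to 4 (log2 fold change 1.19, SE 0.41, edgeR adjusted p = 0.107, and 0.73 without KO replicate 2). Mvd, which makes isopentenyl diphosphate by decarboxylation, was at 7.49 to 19.0 CPM in WT and 12.4, 55.6, 30.4 and 16.3 CPM in KO (1.10, SE 0.40, edgeR adjusted p = 0.120, and 0.55 without KO replicate 2). For both, KO replicates 2 and 3 lay above every WT library and replicates 1 and 4 inside the WT range. Acat2, the cytosolic thiolase that makes acetoacetyl-CoA, had only replicate 2 above WT, at 45.8 CPM against a WT maximum of 34.3 CPM (0.45, SE 0.28, edgeR adjusted p = 0.326, and 0.13 without that library). Pmvk, phosphomevalonate kinase, went the other way: 7.28 to 28.7 CPM in WT and 10.9, 18.8, 10.7 and 9.95 CPM in KO, with a log2 fold change of -0.37 (SE 0.39, edgeR adjusted p = 0.572, and -0.62 without KO replicate 2), and all KO libraries lay inside the WT range.

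The isoprenoid steps did not move together. Idi1, which interconverts the isoprenoid building blocks, was low, at 1.81 to 5.20 CPM in WT and 3.64, 14.4, 7.99 and 3.54 CPM in KO (log2 fold change 0.84, SE 0.40, edgeR adjusted p = 0.208, and 0.30 without KO replicate 2). Fdps, farnesyl diphosphate synthase, spread from 34.5 to 121 CPM in WT, and only KO replicate 2 with 171 CPM exceeded this. Its log2 fold change of 0.37 (SE 0.40) became -0.12 without KO replicate 2. Ggps1 makes geranylgeranyl diphosphate, which serves protein prenylation and not sterol synthesis. It was at 12.5 to 18.0 CPM in WT and 11.1, 15.1, 11.3 and 11.1 CPM in KO, so that 3 KO libraries lay below all WT libraries and replicate 2 inside their range (log2 fold change -0.24, SE 0.16, edgeR adjusted p = 0.370, and -0.36 without replicate 2).

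Fdft1, Sqle and Lss carry the pathway from farnesyl diphosphate to lanosterol: FDFT1 makes squalene, SQLE oxidises it and LSS closes the rings. All 3 had a fold change above 0, with a median of 0.93, and 0 were called. Fdft1 was at 32.1 to 76.8 CPM in WT and 58.9, 243, 121 and 71.8 CPM in KO (log2 fold change 1.01, SE 0.37, edgeR adjusted p = 0.121). Lss was at 28.7 to 48.5 CPM in WT and 37.1, 136, 82.8 and 39.0 CPM in KO (0.93, SE 0.33, edgeR adjusted p = 0.113). Sqle was at 24.0 to 61.7 CPM in WT and 48.9, 109.9, 63.6 and 46.4 CPM in KO (0.58, SE 0.30, edgeR adjusted p = 0.238). In each, KO replicates 2 and 3 exceeded all WT libraries, for Sqle replicate 3 only narrowly, and replicates 1 and 4 lay inside the WT range. Without KO replicate 2 the log2 fold changes were 0.45 for Fdft1, 0.45 for Lss and 0.24 for Sqle.

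From lanosterol to cholesterol, 7 of 9 enzymes had a fold change above 0, including both called genes, and the median was 0.64. Cyp51, the lanosterol demethylase, was at 40.7 to 96.1 CPM in WT and 67.5, 198, 90.7 and 74.1 CPM in KO (log2 fold change 0.64, SE 0.32, edgeR adjusted p = 0.222). Msmo1, the methyl sterol oxidase, was at 71.7 to 144 CPM in WT and 82.0, 353, 164 and 104 CPM in KO (0.63, SE 0.35, edgeR adjusted p = 0.278). Nsdhl, the decarboxylating dehydrogenase that acts with MSMO1, was at 16.6 to 58.8 CPM in WT and 25.7, 114, 51.6 and 29.7 CPM in KO (0.70, SE 0.43, edgeR adjusted p = 0.323). For these 3 genes the difference almost vanished without KO replicate 2, with log2 values of 0.17, 0.042 and 0.071. Dhcr7, a reductase of the final steps, was at 15.4 to 40.7 CPM in WT and 28.6, 86.4, 51.9 and 35.3 CPM in KO (0.75, SE 0.31, edgeR adjusted p = 0.157, and 0.36 without replicate 2).

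Tm7sf2 and Lbr both encode reductases for the step after CYP51, and neither rose. Tm7sf2 was at 41.9 to 78.2 CPM in WT and 49.6, 73.5, 55.4 and 59.5 CPM in KO, a log2 fold change of -0.029 (SE 0.18) that was 0.012 under upper-quartile scaling and -0.15 without KO replicate 2. Lbr, which is also a chromatin-binding protein of the inner nuclear membrane, was lower in KO, at 6.40 to 12.5 CPM in WT and 5.74, 6.70, 5.15 and 4.04 CPM in KO (-0.73, SE 0.24, edgeR adjusted p = 0.0961). Of the KO libraries, only replicate 2 reached the WT range, and it exceeded only the library labelled WT replicate 4. The other WT libraries lay at 7.03 CPM or above, so the Lbr groups overlapped only through these libraries. Without WT replicate 4 the log2 fold change of Lbr was -0.81 (edgeR adjusted p = 0.0265), in a fit that called 10.9% of all genes lower. Lbr is also well expressed in leukocytes. All 7 Kupffer cell and macrophage markers had a fold change below 0 (0 called), while 48.4% of all genes were above 0. These markers summed to 35.9 to 252 CPM in WT and 27.1 to 54.3 CPM in KO, with none at 0 in any library. The 7 neutrophil and lymphocyte markers summed to 6.33 to 131 CPM in WT and 3.69 to 11.0 CPM in KO, with Ly6g, Cd3d, Cd79a and Ms4a1 at 0 counts in at least 1 library. For both sums the lowest WT value was that of the library labelled WT replicate 4. The part of these cells in the Lbr difference was not tested.

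**Figure D3:**
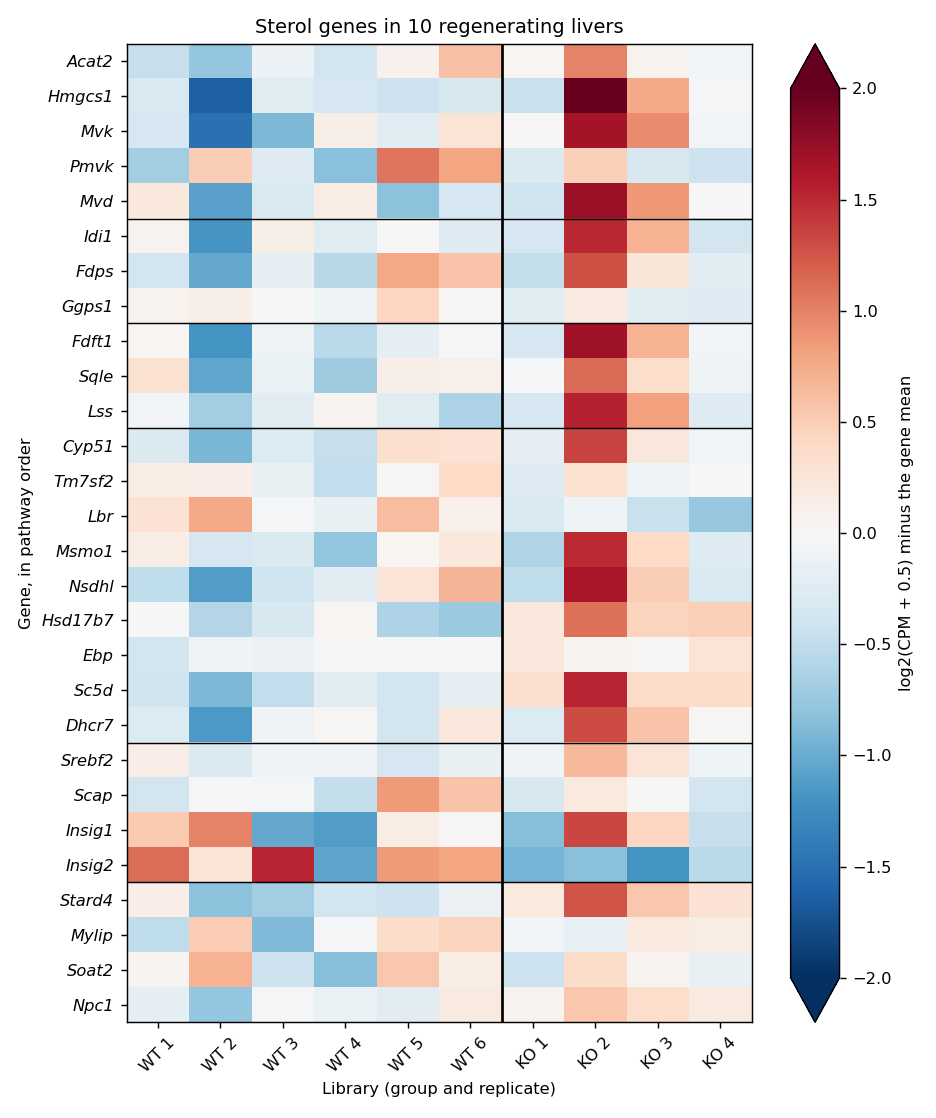
Log2(CPM + 0.5) of each tested gene in each library, centred on the gene's average, with genes in pathway order and colours that saturate at 2 above or below it. KO replicate 2 is the highest library for 15 of the 20 enzymes, and Insig2 is low in all 4 KO libraries and in WT replicate 4.

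The spread between KO libraries had the same order in most of the pathway, a pattern picked out after the values had been seen. KO replicate 2 was the highest of the 10 libraries for 19 of the 28 genes and for 15 of the 20 enzymes, beside 7.79% of all tested genes. Within KO it was the highest for 25 of the 28, the exceptions being Ebp, Insig2 and Mylip, beside 24.3% of all genes, and replicates 2 and 3 were the highest pair for 21 (25.2%). Replicate 2 stood at 2-fold or more over the mean of the other KO libraries for 14 genes, beside 1.57% of all genes. KO replicates 2 and 3 were the only KO libraries above every WT library for 10 genes (Mvk, Mvd, Idi1, Fdft1, Sqle, Lss, Msmo1, Dhcr7, Srebf2 and Npc1; all genes 3%). KO replicate 2 alone was above for 5 (Acat2, Fdps, Cyp51, Nsdhl and Insig1; all genes 3.22%), and replicates 2, 3 and 4 for Hmgcs1. For the remaining 8 genes no KO library exceeded every WT library. The summed level of the 20 enzymes was 713 to 1233 CPM in WT and 1037, 4280, 1639 and 1194 CPM in KO replicates 1 to 4. By this sum, to which abundant enzymes add most, replicates 1 and 4 lay inside the WT range and replicates 2 and 3 above it. Single enzymes departed from this. Replicates 1 and 4 lay above every WT library for Sc5d, Hsd17b7 and Ebp, and below every WT library for Ggps1 and Lbr.

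KO replicate 2 held 12675838 counts, the fewest of the KO libraries and within the range of the WT libraries. Mitochondrial genes took 22.2% of its counts, against 14.5 to 28.9% in WT and 16.5 to 30.5% in KO. Its mean correlation with the other KO libraries over all tested genes (r = 0.976) was inside their range of 0.976 to 0.979. The part of depth or mitochondrial share in the pattern of KO replicate 2 was not tested. Among the WT libraries, replicate 2 was the lowest for 13 of the 20 enzymes (all genes 22.4%), with an enzyme sum of 713 CPM against 956 to 1233 CPM in the other 5. The labels give no batch, feeding state or hour of collection. Fed-state and clock genes were counted beside the pathway: 0 of 8 and 0 of 12 were called. The gene with the smallest p in each was Pdk4, a fasting-induced kinase (33.2 to 906 CPM in WT, 20.9 to 45.8 in KO; log2 fold change -3.22, SE 0.85, edgeR adjusted p = 0.0678), and Per1 (56.9 to 116 CPM in WT, 30.0 to 55.0 in KO; -0.80, SE 0.22, edgeR adjusted p = 0.0689). Their part in the sterol differences was not tested.

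Most, though not all, of the enzymes varied together across the 10 libraries. Over the 190 pairs of enzymes, the median correlation of log2 CPM was 0.69 across the 10 libraries, 0.39 across the 9 without KO replicate 2, and 0.37 across the 6 WT libraries. The number of enzymes whose correlation with the mean of the others exceeded 0.8 was 14, 8 and 7 in these sets. The lowest correlations with the others across the 10 libraries were those of Lbr (-0.34), Ebp (0.13), Ggps1 (0.14), Pmvk (0.18) and Tm7sf2 (0.38). All points share library depth and scaling, so these values describe the libraries and carry no test. A synthesis score per library, the mean over the 20 enzymes of log2 CPM centred per gene, was -0.70 in WT replicate 2 and -0.28 to 0.091 in the other WT libraries, and -0.21, 1.20, 0.35 and -0.11 in KO replicates 1 to 4.

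Of the 4 genes that control SREBP2, 2 were above 0 and 2 below, with a median log2 fold change of -0.016 and 0 called. Insig2 (chromosome 1, 121304353 to 121332589, minus strand), one of the retention proteins and the form known to be high in fasted liver, had the largest change of any gene in the list after Hmgcs1, and in the opposite direction. It was at 299 CPM in the lowest WT library, 1099.8 at the median and 1785 in the highest, and at 325, 348, 270 and 427 CPM in KO replicates 1 to 4. The groups overlapped only through the library labelled WT replicate 4, since the other 5 WT libraries lay at 752 CPM or above. The log2 fold change was -1.64 (SE 0.39, edgeR adjusted p = 0.0553). Without WT replicate 4 it was -1.83 (edgeR adjusted p = 0.000825), in a fit that called 10.9% of all genes lower. Without KO replicate 2 it was -1.64 (edgeR adjusted p = 0.156), so this difference had the same size without the library that set the enzymes apart.

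Insig1 (chromosome 5, 28071363 to 28078662, plus strand), the other retention protein and itself an SREBP2 target, spread widely in both groups. It was at 34.3 to 151 CPM in WT (median 79.9) and 41.6, 191, 102 and 54.4 CPM in KO replicates 1 to 4. Its log2 fold change was 0.25 (SE 0.49, edgeR adjusted p = 0.778) and became -0.31 without KO replicate 2 and 0.092 without WT replicate 4. The ratio of Insig2 to Insig1 counts was 4.98 to 48.6 in WT and 7.81, 1.82, 2.65 and 7.85 in KO. KO replicates 2 and 3 thus had less Insig2 per Insig1 than any WT library, while replicates 1 and 4 lay inside the WT range.

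Srebf2 (chromosome 15, 82147181 to 82205379, plus strand) had a small difference between the groups. It was at 31.5 to 43.6 CPM in WT (median 36.9) and 38.1, 62.9, 47.8 and 37.6 CPM in KO, with replicates 2 and 3 above every WT library (log2 fold change 0.35, SE 0.17, edgeR adjusted p = 0.208, and 0.17 without replicate 2). Scap, the escort, was at 44.1 to 111 CPM in WT and 49.4, 70.2, 61.0 and 47.0 CPM in KO, and all KO libraries lay inside the WT range (-0.28, SE 0.26, edgeR adjusted p = 0.513).

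Of the genes that handle sterol, Npc1 exports cholesterol from lysosomes, Soat2 esterifies it, Mylip is a ubiquitin ligase for lipoprotein receptors, and Npc1l1 takes up sterol at cell surfaces. Npc1 was at 37.1 to 72.4 CPM in WT and 67.2, 92.2, 81.4 and 72.3 CPM in KO, and KO replicates 1 and 4 overlapped WT, replicate 4 just under the highest WT library (log2 fold change 0.46, SE 0.18, edgeR adjusted p = 0.132). Soat2 was at 25.3 to 75.4 CPM in WT and 34.0, 59.6, 47.7 and 41.6 CPM in KO (-0.14, SE 0.28, edgeR adjusted p = 0.791, and -0.29 without KO replicate 2). Mylip was at 1.30 to 4.23 CPM in WT and 2.70, 2.47, 3.30 and 3.17 CPM in KO (-0.034, SE 0.34, edgeR adjusted p = 0.961, and 0.0096 under upper-quartile scaling). The last 2 lay inside the WT range in every KO library, and these intervals are wide. Npc1l1 had 0 to 2 counts per library and 8 in all, below the 3 counts that a count of 0 allows, which correspond to 0.165 to 0.259 CPM. No fold change was computed for it.

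Levels between genes were compared per kilobase of exon, as CPM per kb in WT. Insig2 was the highest by far with 307 CPM per kb, followed by Ebp with 52.3, Hmgcs1 with 43.0 and Insig1 with 26.4. Idi1 (1.17), Mylip (0.924) and Npc1l1 (0.017) were the lowest. In KO the order at the top changed: Hmgcs1 stood at 167 CPM per kb on average, through replicate 2, and Insig2 at 98.7. Exons of 11 of the 29 genes overlap another gene (9 on the opposite strand, among them Hmgcs1, Fdft1, Lss, Cyp51 and Npc1), and the strand setting of the counting is not given in the sources used here, so their levels may include or lack reads of the neighbour. Sc5d, Hsd17b7, Stard4, Ebp and the Insig genes share no exon bases with another annotated gene.

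The 8 tested control and handling genes were set against the synthesis score across the 10 libraries, 8 relations in all. WT and KO libraries were pooled for this, so a difference between the genotypes also enters the p-values over 10 libraries. Both values of each point also share that library's depth and scaling, which the permutation p-values do not account for. The regulator's own gene, Srebf2, had r = 0.84 (adjusted permutation p = 0.0203) and rho = 0.38 (adjusted permutation p = 0.446). Stard4 had r = 0.86 (adjusted permutation p = 0.0116) and rho = 0.73 (adjusted permutation p = 0.081). Npc1 had r = 0.82 (adjusted permutation p = 0.0203) and rho = 0.75 (adjusted permutation p = 0.081). Without the 2 libraries farthest from the median score, KO replicate 2 and WT replicate 2, r was 0.34, 0.51 and 0.60, with adjusted permutation p-values of 0.457, 0.267 and 0.267. The calls thus rest on those libraries. Over the remaining 8 libraries, with a narrower range of scores, r stayed above 0 for these genes. By rank, rho over the 8 libraries was -0.071 for Srebf2 (permutation p = 0.882), 0.48 for Stard4 and 0.50 for Npc1. Over all 10 libraries the unadjusted permutation p-values were 0.00611, 0.00145 and 0.00763 for r, and 0.279, 0.0203 and 0.0175 for rho. Within the 6 WT libraries, r was 0.16 for Srebf2, 0.65 for Stard4 and 0.85 for Npc1 (exact permutation p = 0.769, 0.151 and 0.0472, and 0.907, 0.606 and 0.378 adjusted). In the same order, rho within WT was -0.086, 0.60 and 0.49. Over all 10 libraries the other 5 relations did not pass. Without KO replicate 2 and WT replicate 2, r was 0.74 for Insig1 (permutation p = 0.0316, adjusted 0.253). For Soat2, Mylip, Scap and Insig2 it was then 0.66, 0.57, 0.50 and -0.15. Within the 6 WT libraries r was -0.26 for Insig1. The values that follow are over all 10 libraries. For Insig1 r was 0.46 (permutation p = 0.184, adjusted 0.368; rho 0.43, permutation p = 0.217, adjusted 0.435). For Insig2 it was -0.32 (permutation p = 0.414, adjusted 0.552; rho -0.18, permutation p = 0.632, adjusted 0.722). For Scap it was 0.31 (permutation p = 0.373, adjusted 0.552; rho 0.61, permutation p = 0.067, adjusted 0.179). Soat2 had r = 0.20 (permutation p = 0.594, adjusted 0.679; rho 0.30, permutation p = 0.409, adjusted 0.546), and Mylip had r = -0.080 (permutation p = 0.818, adjusted 0.818; rho 0.042, permutation p = 0.917, adjusted 0.917).

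**Figure D4:**
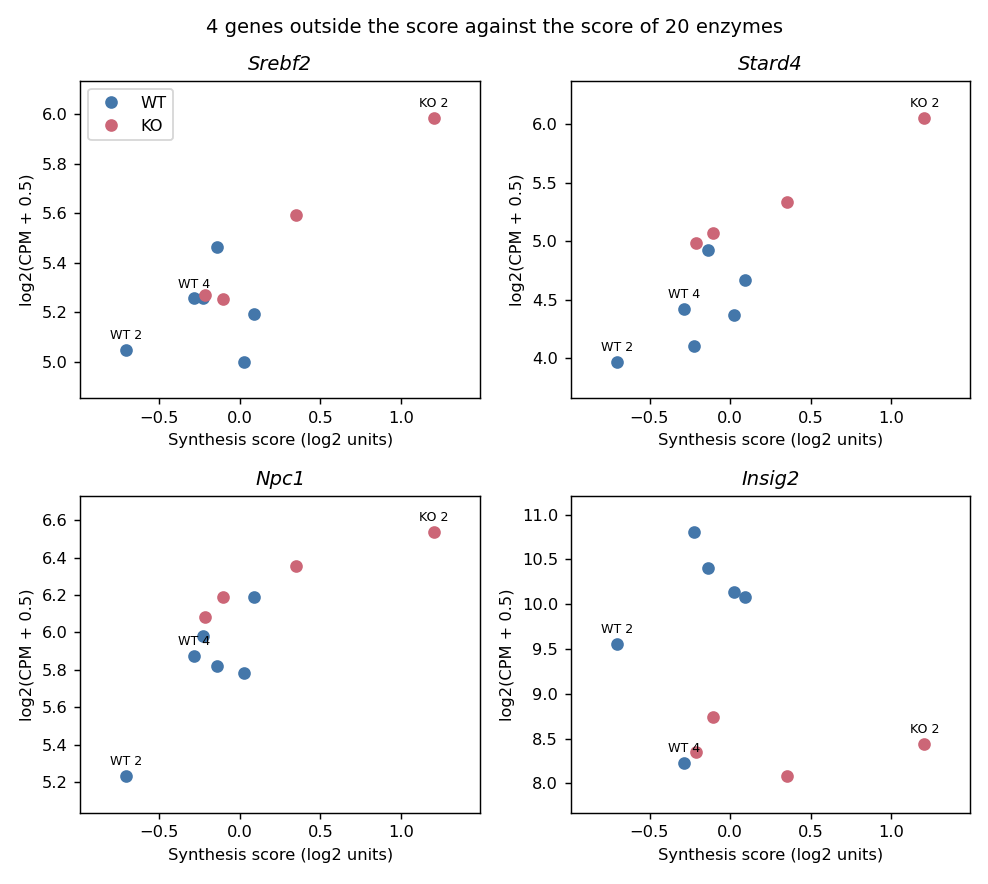
Log2(CPM + 0.5) of Srebf2, Stard4, Npc1 and Insig2 against the synthesis score of each library (log2 units), with WT libraries in blue and KO libraries in red. KO replicate 2 at a score of 1.20 and WT replicate 2 at -0.70 lie at the ends, and Insig2 splits the KO libraries and WT replicate 4 from the other WT libraries at any score.

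Other genes of sterol metabolism were counted from lists kept apart from the 29. Partners in SREBP processing and sterol-regulated degradation had 0 of 13 called, with 4 fold changes above 0 and 9 below. The smallest p was that of Vcp, the ATPase that extracts ubiquitinated membrane proteins, at 126 to 182 CPM in WT and 119.5, 103, 106 and 117 CPM in KO (log2 fold change -0.56, SE 0.14, edgeR adjusted p = 0.0617). Every KO library of Vcp lay below every WT library, as in 3.29% of all tested genes, while 3.61% had the reverse. Erg28, a scaffold of the demethylating enzymes and 1 of the 4 above 0, was looked at after its values had been seen. It was at 19.7 to 54.8 CPM in WT and 60.8, 93.5, 62.5 and 62.7 CPM in KO, without overlap (0.96, SE 0.25, edgeR adjusted p = 0.0633), the same order of KO libraries as Sc5d in that replicate 2 was highest and the other 3 were close together.

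Of 12 genes of LXR and oxysterol metabolism, 1 was called lower and 0 higher, beside 0.767% and 0.563% of all tested genes. The fold change was below 0 for 7 of the 12 and above 0 for 5. Ch25h, which makes an oxysterol that blocks SREBP processing, was at 0.850 to 5.22 CPM in WT (median 2.20) and 0.165, 0.385, 0.384 and 0.498 CPM in KO. The groups did not overlap, at counts of a few reads per KO library (log2 fold change -2.87, SE 0.55, edgeR adjusted p = 0.0440). The call was lost on leaving out any library other than WT replicates 4 and 6, with an edgeR adjusted p of up to 0.147 (without KO replicate 2, -2.91). The fits that lost it called 0 to 55 of all genes. Ch25h is known as a macrophage gene, and the macrophage marker sums given with Lbr moved in the same direction. Their part in the Ch25h difference was not tested. Sterol transport and ester genes had 0 of 15 called (smallest p for Npc2, -0.79, edgeR adjusted p = 0.104), isoprenoid branches 0 of 12 (Dhdds, -0.43, edgeR adjusted p = 0.131), and acetyl-CoA supply and other SREBP targets 0 of 13 (Fads2, 0.78, edgeR adjusted p = 0.0815). Median log2 fold changes of the 5 lists were -0.17, -0.11, 0.13, -0.13 and 0.11, against 0.67 for the 20 enzymes and -0.016 for all genes. No test compared these lists.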

How the data were processed

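Poly(A) RNA of 10 mouse liver libraries (6 WT, 4 KO) was analysed from raw read counts per gene symbol, whole numbers as the authors deposited them in 1 table. The submitters' processing notes name STAR, HTSeq and DESeq2 with the build mm10. The sources used here give no version, annotation or strand setting.

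The comparison of KO with WT used edgeR 4.0.16 (R 4.3.3) with TMM scaling, filterByExpr, robust quasi-likelihood dispersion and no covariate, on all 10 libraries and 13688 genes (99.8% of counts). Benjamini-Hochberg adjustment ran over all these genes, with calls made under 0.05. A prior count of 2 entered log2 CPM. Two-sided exact permutation over 210 splits compared single values on log2(CPM + 0.5), and relations used 100000 resamples (exact within WT). The code was tested on simulated data. Groups and replicate numbers came from the sample labels, 0 columns were left out, and pairs of libraries within a group differed by far more than counting noise (chi-square per degree of freedom 20.8 to 169).

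The members and lists were chosen with earlier results of these data known. Named genes were all 29 members, Ifrd1, and of each other list up to 3 called genes with the smallest p or else the gene with the smallest p. Erg28 was named outside this rule, after its values had been seen. Coordinates and exon lengths are those of GENCODE M21 (GRCm38, the assembly of mm10), and promoters those of RefSeq. Settings varied were the scaling (RLE, upper quartile), the filter (none, or 1 CPM in 4 libraries), the tool (DESeq2 1.42.0, or limma-voom of limma 3.58.1, also with sample weights), the prior (not robust), a covariate (1 surrogate variable from sva 3.50.0, or a replicate block), the permutation offset (2 CPM), and the libraries (each left out in turn, or WT replicate 4 with KO replicate 2).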

Additional observations from a re-analysis of the deposited data

Results flagged for a closer look

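In 60 groups of values (each gene's WT or KO libraries), the highest or lowest library was set against the gap that Dixon's 95% criterion allows, and 8 stood out. Chance gives about 1 in 20 such groups when values are normal and groups independent. The CPM values were not on a log scale, and the genes share the same libraries and many vary together. The count is therefore a description and cannot be read against that rate. Of the 8, 5 were KO replicate 2. It stood far above the other KO libraries for Hmgcs1 at 2138 CPM (next highest 464), Sc5d at 224 CPM (next 100.3), Acat2 at 45.8 CPM (next 23.8), Pmvk at 18.8 CPM (next 10.9) and Ggps1 at 15.1 CPM (next 11.3). For Pmvk and Ggps1 this library was high within KO and inside the WT range.

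Among the WT libraries, Hmgcs1 was far below the rest in replicate 2 at 88.0 CPM (next lowest 205). Ebp was low in replicate 1 at 99.5 CPM (next 119), and Ggps1 was high in replicate 5 at 18.0 CPM (next 14.5).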

How the results depend on the processing

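Low counts kept Npc1l1 out of the test. Of 616 refitted fold changes of the 28 genes, 543 kept their direction and side of the threshold, 26 lost the call, 14 gained it and 33 reversed. The 20 genes other than Pmvk, Fdps, Tm7sf2, Msmo1, Scap, Insig1, Mylip and Soat2 did not reverse under any alternative. The 2 members called became 1 under RLE scaling and under the filter of 1 CPM in 4 libraries (Hsd17b7 lost in both), 7 with DESeq2 (Insig2, Hmgcs1, Sc5d, Hsd17b7, Stard4, Lbr and Mvk, of 1618 genes called), 5 with limma-voom with sample weights (of 2629 genes) and 4 without WT replicate 4 and KO replicate 2 (of 1782). Limma-voom called 318 genes (231 higher, 87 lower), against 182 (77 higher, 105 lower). With 1 surrogate variable 0 members of 0 genes were called, at an unadjusted p under 0.05 539 genes and 5 members. With the replicate block over replicates 1 to 4, 0 members and 0 genes were called (unadjusted 7 members), and with the same 8 libraries without the block 0 members and 4 genes. Same-numbered libraries deviated together weakly or not at all, with correlations of 0.18, 0.069, -0.029 and -0.020 for replicates 1 to 4. The labels do not state pairs, and the numbers were not taken as pairs. Leaving out each library in turn gave 0 to 5 members and 0 to 2893 genes. The highest of both came without WT replicate 4 (Insig2, Sc5d, Hsd17b7, Stard4 and Lbr), and 0 members were called without any other library. The cause of these changes was not tested.

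Reversed log2 fold changes were as follows. With 1 surrogate variable, Pmvk was 0.41, Tm7sf2 0.31, Scap 0.012, Mylip 0.32 and Soat2 0.81. With the replicate block they were 0.20, 0.080, 0.092, 0.31 and 0.081, and without it in the same libraries Pmvk was 0.14, Tm7sf2 0.070, Scap 0.095 and Mylip 0.20. Upper-quartile scaling gave Tm7sf2 0.012 and Mylip 0.0096, limma-voom Mylip 0.086 and, with weights, 0.17. Without KO replicate 2 and WT replicate 4, Fdps was -0.20, Insig1 -0.46, Msmo1 -0.055 and Mylip 0.017. Leaving out single libraries gave Fdps -0.12 to 0.59, Insig1 -0.31 to 0.52, Tm7sf2 -0.15 to 0.055, Mylip -0.19 to 0.090 and Soat2 -0.29 to 0.013. Without the 2 extreme libraries the relation with the synthesis score fell to r = 0.34 for Srebf2, 0.51 for Stard4 and 0.60 for Npc1, and turned from -0.080 to 0.57 for Mylip. It rose from 0.46 to 0.74 for Insig1, from 0.20 to 0.66 for Soat2 and from 0.31 to 0.50 for Scap, and went from -0.32 to -0.15 for Insig2.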
